A study of Saccharomyces cerevisiae with 18 samples.

Results

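The genes described here are 35 nuclear genes of the yeast respiratory chain and ATP synthase, taken by name from the 6008 protein-coding genes of the R64 annotation. They comprise 14 genes of the ATP synthase and its inhibitor, 9 of complex III, 9 of complex IV, both genes of cytochrome c, and NDI1, the internal NADH dehydrogenase. No measured value was used to choose them, but the choice was made with earlier results of these data known. The question asked of each gene was how its transcripts differed between galactose and glucose in level, in both ends and in the number of isoforms.

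Transcript isoform sequencing (TIF-Seq) records where a single RNA molecule starts and where it ends, and every read is a pair of positions. All 18 libraries came from the wild-type diploid strain SLS045 of the S288c background, grown in rich medium to mid-log phase at an OD of 1. Galactose cultures had 1% galactose as sugar and glucose cultures 1% glucose, and the labels name no further allele or agent. With the standard protocol there were 6 galactose libraries from 4 cultures and 6 glucose libraries from 2 cultures. With a protocol enriched for long molecules there were 2 libraries per medium, from galactose cultures 1 and 4 and glucose cultures 1 and 2, all of which are also in the standard libraries. A control on polyadenylated RNA without a cap had 1 library per medium, from galactose culture 3 and glucose culture 2.

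The respiratory chain of the inner mitochondrial membrane passes electrons from NADH and succinate through complex III and cytochrome c to complex IV, which reduces oxygen. Complexes III and IV pump protons, and the ATP synthase uses the returning protons to make ATP. In budding yeast there is no proton-pumping complex I; single-subunit NADH dehydrogenases such as NDI1 take its place. Glucose represses many of these genes in yeast, and the Hap2/3/4/5 complex, which binds CCAAT boxes, is a known activator of respiratory genes. A few subunits are encoded in mitochondrial DNA; the deposited table covers nuclear chromosomes, and those subunits were not analysed here.

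The deposited table gives 1 summed column per kind of library and medium, which leaves no spread between cultures to compute and no p-value to give. Every interval quoted is a 95% interval for counting error alone, and reads without molecular identifiers are not independent molecules. The standard columns held 6425269 reads in galactose and 6290819 in glucose, the long-enriched columns 3559614 in galactose and 2745847 in glucose. As a check of the media, GAL1 had 24292 reads in galactose and 0 in glucose with the standard protocol, and 147402 in galactose and 77 in glucose with the long-enriched one. Over all capped reads, 75.3% of molecules began with A and 56.4% had C at the base before.

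Nearly all of these genes had more transcript in galactose. A gene was called higher or lower when the scaled ratio of reads was at least 2-fold in both protocols with both intervals excluding 1. All 35 genes were measured, meaning at least 20 reads per protocol over both media, and 34 were called higher in galactose and 0 lower. Over all 3583 measured genes 6.45% were called higher and 2.51% lower. The exception was COX5B, a subunit gene of complex IV used at low oxygen. For 31 of the 35 genes the glucose columns alone reached 20 reads in each protocol, so the depth did not come from galactose only. ATP3, CYT1, COX4 and CYC7 reached the depth in at least 1 protocol through galactose reads, so their calls were partly set by the filter. The median log2 ratio of the 35 genes was 1.97 with the standard protocol and 2.04 with the long-enriched one, against 0.02 and 0.01 over all measured genes. How duplicate reads were handled is not stated in the sources used here; with each pair of ends counted once the medians were 1.28 and 1.32, and 24 genes were called higher. Reads covering these genes took 3.15% of all assigned reads in galactose and 0.622% in glucose with the standard protocol, and 2.42% in galactose and 0.742% in glucose with the long-enriched one. The cultures were measured in bulk, so more cells with a transcript and more transcript per cell cannot be told apart.

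**Figure D1:**
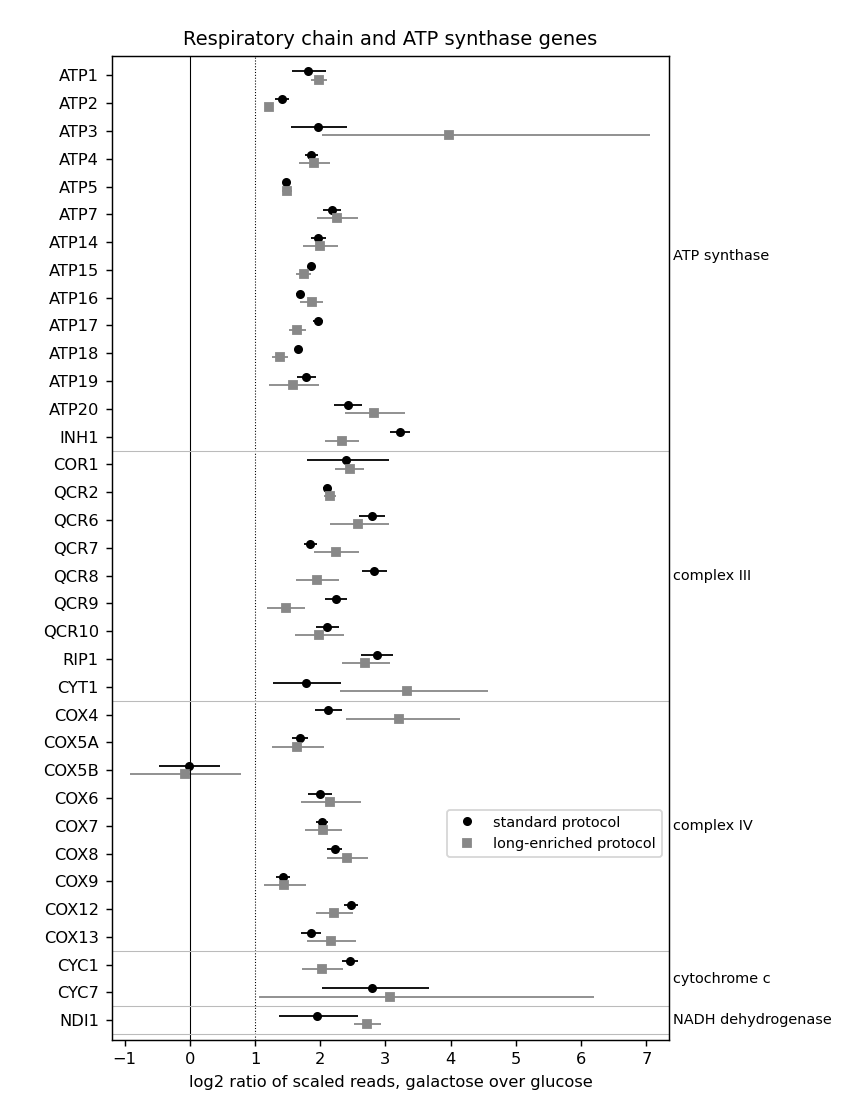
Log2 ratio of scaled reads, galactose over glucose, for each of the 35 genes by complex (circles, standard protocol; squares, long-enriched protocol; lines, 95% counting intervals; dotted line, 2-fold). All genes but COX5B lie right of the dotted line in both protocols.

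Scaling used the trimmed mean of M values over all genes. The protocols recover long molecules differently, so levels were not compared between genes; where reads of paralogs are put together as a share, the share was compared between media within a protocol. ATP1, ATP2, COR1 and NDI1, the 4 genes with coding sequences of 1374 nt or more, had more long-enriched than standard reads in galactose, and the other 31, of at most 1107 nt, had not. The protocols gave ratios with intervals that did not overlap for 7 genes, ATP2, ATP17, ATP18, INH1, QCR8, QCR9 and COX4. The same count was not made over all measured genes, so whether 7 is typical of the protocols was not tested. The long-enriched galactose column holds cultures 1 and 4 only, and the part of cultures in the differences between protocols was not tested.

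The ATP synthase consists of the catalytic F1 head and the membrane-bound Fo sector, joined by a central and a peripheral stalk. All 14 genes were called higher in galactose, and their summed reads were 3.39-fold higher (interval 3.35 to 3.44) with the standard protocol and 2.64-fold higher (2.60 to 2.69) with the long-enriched one. ATP2, which encodes the catalytic beta subunit of F1, had the lowest ratio of the complex. ATP2 had 3090 reads in galactose and 841 in glucose with the standard protocol, and 33939 in galactose and 10187 in glucose with the long-enriched one. Its ratio was 2.66 (2.47 to 2.88) in the first and 2.32 in the second. ATP2 held most of the long-enriched reads of the complex, and without it the other 13 genes were 3.42-fold higher with the standard protocol and 3.26-fold higher with the long-enriched one.

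INH1 had the highest standard ratio of the complex and of all 35 genes. It encodes the small protein that inhibits ATP hydrolysis by F1 when the proton gradient fails. INH1 had 4644 reads in galactose and 361 in glucose with the standard protocol, a scaled ratio of 9.33 (8.38 to 10.4). With the long-enriched protocol it had 980 reads in galactose and 136 in glucose, a ratio of 5.02 (4.19 to 6.05). The other F1 genes, ATP1 for the alpha subunit, ATP3 for gamma, ATP16 for delta and ATP15 for epsilon, lay between 3.23 and 3.92 with the standard protocol. ATP3 had 45 reads in galactose and 2 in glucose in the long-enriched columns, so its ratio of 15.7 there had an interval from 4.10 to 133. The depth of ATP3 there came through galactose. Of the stalk genes, ATP5 (the oligomycin-sensitivity protein) stood at 2.78, ATP4 at 3.64, ATP14 at 3.92 and ATP7 at 4.53 with the standard protocol. Of the small membrane subunits, ATP18, ATP19 and ATP17 stood at 3.17, 3.45 and 3.90. ATP20, whose product takes part in forming ATP synthase dimers, stood at 5.38.

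INH1 molecules also began nearer the start codon in galactose. The mean 5' UTR of INH1 was 70.2 ± 34.3 nt in galactose and 108.5 ± 57.2 nt in glucose with the standard protocol (SD over 4644 and 361 reads). It was 71.7 nt in galactose and 111.6 nt in glucose with the long-enriched one. The most used single start lay 80 nt before the start codon in galactose and 86 nt in glucose, and starts upstream of the midpoint between these made up 21.9% of reads in galactose (20.7% to 23.1%) and 55.4% in glucose (50.1% to 60.6%). The long-enriched columns gave 22.8% in galactose and 59.6% in glucose. The start at 86 nt itself held 11.1% of standard reads in galactose and 12.2% in glucose, and 11.7% of long-enriched reads in galactose and 19.9% in glucose. The start at 80 nt held 18.8% of standard reads in galactose and 11.9% in glucose, and 19.8% of long-enriched reads in galactose and 11.8% in glucose. In standard glucose the starts at 86 and 80 nt had 44 and 43 reads, so their order there was not settled. Both sites are shown to place the main starts of the gene; lower-case bases are the R64 reference and the capital is the first base of the molecule.
INH1, most used in galactose, chrIV:135084-135113, + strand: aatttgttcgtggttGaatttgtttttgct
INH1, most used in glucose, chrIV:135078-135107, + strand: tctttgaatttgttcGtggttgaatttgtt

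ATP17, for subunit f of Fo, used different main starts in the media. The start 29 nt before the start codon held 36.8% of standard reads in galactose and 12.0% in glucose, and the start at 80 nt held 11.9% in galactose and 26.9% in glucose. Starts upstream of their midpoint made up 40.3% in galactose and 81.2% in glucose, and 41.2% in galactose and 77.0% in glucose with the long-enriched protocol. The counting intervals of the 2 media did not overlap in either protocol. The mean leader was 49.9 nt in galactose and 68.3 nt in glucose with the standard protocol, just short of the 20 nt set for a shift. Its sites are shown because they differ between the media.
ATP17, most used in galactose, chrIV:1228567-1228596, + strand: catttaaagtctttcGtgaaaggagtggac
ATP17, most used in glucose, chrIV:1228516-1228545, + strand: attattttctagggcAagaaaagacattgt

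ATP14, for subunit h of the peripheral stalk, kept the same most used start, 39 nt before the start codon, in all 4 columns, but starts beyond it differed. An ATG lies 96 nt before the start codon, in frame with it, and opens a reading frame of 2 codons with the ATG included. Molecules that carried it made up 1.86% of standard reads in galactose (1.44% to 2.36%) and 18.2% in glucose (15.3% to 21.3%). In the long-enriched columns they made up 2.41% in galactose and 14.6% in glucose. The ATG is in capitals.
ATP14, upstream ATG, chrXII:722457-722479, - strand: cactgctcagATGttataaggaa

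Complex III, the cytochrome bc1 complex, moves electrons from ubiquinol to cytochrome c. All 9 of its genes were called higher in galactose, and their summed reads were 4.56-fold higher (4.42 to 4.70) with the standard protocol and 4.53-fold higher (4.31 to 4.76) with the long-enriched one. RIP1, for the Rieske iron-sulphur subunit, had the highest standard ratio of the complex. RIP1 had 1510 reads in galactose and 150 in glucose with the standard protocol, a ratio of 7.30, and 640 in galactose and 69 in glucose with the long-enriched one, a ratio of 6.46. CYT1, for cytochrome c1, had the lowest standard ratio, 3.44, from 180 reads in galactose and 38 in glucose. In the long-enriched columns CYT1 had 115 reads in galactose and 8 in glucose, a ratio of 10.0, so its place in the order was not the same in both protocols. Its depth there came through galactose. The genes of the core proteins, COR1 and QCR2, stood at 5.27 and 4.30 with the standard protocol and at 5.46 and 4.42 with the long-enriched one. Among the small subunits QCR8 and QCR6 stood at 7.12 and 6.92, QCR9 and QCR10 at 4.72 and 4.30, and QCR7 at 3.60 with the standard protocol.

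QCR9, for a small membrane subunit, differed between media in its most used start in both protocols. The start 27 nt before the start codon held 12.8% of standard reads in galactose and 9.17% in glucose, and the start at 70 nt held 11.0% in galactose and 19.0% in glucose. With the long-enriched protocol the most used start lay at 19 nt in galactose, with 16.1% of reads, and at 70 nt in glucose, with 23.6%; the start at 70 nt held 12.2% in galactose. Starts upstream of their midpoint made up 30.6% of standard reads in galactose and 62.7% in glucose, and 33.9% in galactose and 71.5% in glucose with the long-enriched protocol. The mean leader was 42.3 nt in galactose and 58.5 nt in glucose with the standard protocol, short of the 20 nt set for a shift. An ATG lies 90 nt before the start codon and opens a frame of 5 codons. It was carried by 6.72% of standard molecules in galactose and 11.9% in glucose, and by 7.14% in galactose and 19.5% in glucose with the long-enriched protocol.
QCR9, most used in galactose with the standard protocol, chrVII:859489-859518, - strand: ccttcgcaatttcgtAaagcaacaatagca
QCR9, most used in glucose, chrVII:859532-859561, - strand: ctgtcacggatagtcAataatcgttgaagg

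Complex IV, cytochrome c oxidase, passes electrons to oxygen. Of its 9 nuclear genes described here, 8 were called higher in galactose and COX5B was not, and their summed reads were 3.97-fold higher (3.86 to 4.10) with the standard protocol and 4.13-fold higher (3.80 to 4.49) with the long-enriched one. COX12, for a subunit on the intermembrane side, had the highest standard ratio, 5.55, from 6308 reads in galactose and 824 in glucose. COX12 had 808 reads in galactose and 121 in glucose with the long-enriched protocol. COX8, COX4, COX7 and COX6 stood at 4.67, 4.36, 4.07 and 4.00 with the standard protocol, and COX13, COX5A and COX9 at 3.62, 3.23 and 2.69. COX4 had 172 reads in galactose and 13 in glucose in the long-enriched columns, a ratio of 9.22, where the depth came through galactose.

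COX5A and COX5B encode interchangeable forms of the same subunit, and COX5B is known as the hypoxic form. COX5B had 92 reads in galactose and 67 in glucose with the standard protocol, a ratio of 0.996 (0.719 to 1.39), and 30 in galactose and 22 in glucose with the long-enriched one, a ratio of 0.950 (0.530 to 1.73). Its direction turned with the scaling, since dividing by total assigned reads gave a log2 ratio of 0.46. COX5A had 2758 reads in galactose and 620 in glucose with the standard protocol, and 306 in galactose and 68 in glucose with the long-enriched one. The share of COX5B in the reads of both genes needs no scaling between media. It was 3.23% in galactose (2.61% to 3.94%) and 9.75% in glucose (7.64% to 12.2%) with the standard protocol. With the long-enriched protocol it was 8.93% in galactose (6.11% to 12.5%) and 24.4% in glucose (16.0% to 34.6%). The share was lower in galactose in both protocols, with intervals that did not overlap, and it differed between protocols as well. With each pair counted once it was 9.77% in galactose and 15.8% in glucose with the standard protocol and 10.9% in galactose and 32.1% in glucose with the long-enriched one. COX5A and COX5B are 67.4% identical over their aligned part, and no member had a copy of at least 90% identity over 80% of its length.

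COX6 and COX13, for a matrix-side subunit and a small membrane subunit, had shorter mean 5' UTRs in galactose. The call of COX6 held with medians in place of means and with each pair counted once, and that of COX13 held under neither. The mean leader of COX6 was 100.9 ± 39.6 nt in galactose and 141.9 ± 31.0 nt in glucose with the standard protocol (SD over 1583 and 287 reads), and 96.1 nt in galactose and 136.4 nt in glucose with the long-enriched one. The most used start lay 77 nt before the start codon in galactose and 157 nt in glucose with the standard protocol, and 77 nt in galactose and 160 nt in glucose with the long-enriched one. The midpoint used was that of the starts at 77 and 157 nt. Starts upstream of it made up 32.1% of standard reads in galactose (29.8% to 34.5%) and 80.1% in glucose (75.0% to 84.6%). The long-enriched columns gave 21.1% in galactose and 70.2% in glucose.
COX6, most used in galactose, chrVIII:209613-209642, + strand: aatttgaaaaattgtAtcacttctgagact
COX6, most used in glucose with the standard protocol, chrVIII:209533-209562, + strand: gcttatcaaggtgccAgatctcaaggttac

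The mean leader of COX13 was 39.7 ± 31.5 nt in galactose and 62.8 ± 36.6 nt in glucose with the standard protocol (SD over 2130 and 427 reads), and 39.7 nt in galactose and 68.7 nt in glucose with the long-enriched one. The most used start lay 20 nt before the start codon in galactose and 103 nt in glucose. Starts upstream of their midpoint made up 15.7% in galactose and 47.3% in glucose, and 16.8% in galactose and 50.7% in glucose with the long-enriched protocol. Between both starts, 71 nt before the start codon, lies an ATG that is out of frame with it and opens a reading frame of 4 codons. It was carried by 13.0% of standard molecules in galactose (11.6% to 14.5%) and 41.7% in glucose (37.0% to 46.5%), and by 14.4% in galactose and 50.7% in glucose with the long-enriched protocol.
COX13, most used in galactose, chrVII:144773-144802, + strand: gttctacagttatacAaataacaaacaata
COX13, most used in glucose, chrVII:144690-144719, + strand: atataacaaacatacAcgttgccttgaacg
COX13, upstream ATG, chrVII:144727-144749, + strand: tacacatcgcATGtgttttatct

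**Figure D2:**
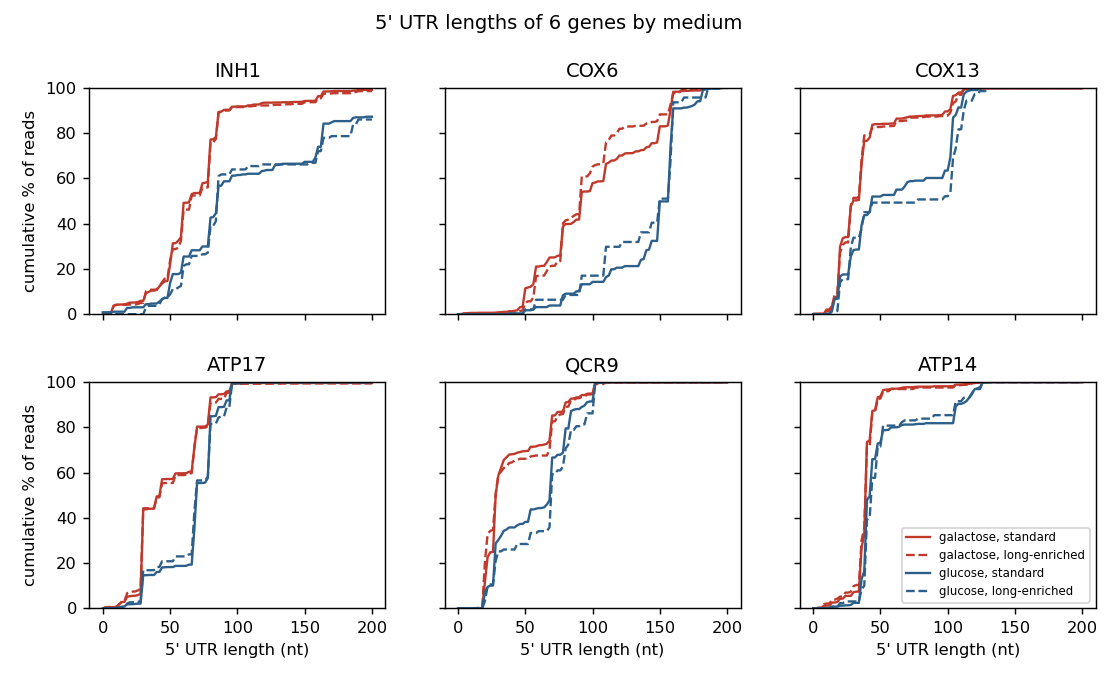
Cumulative percent of reads by 5' UTR length for INH1, COX6, COX13, ATP17, QCR9 and ATP14 (red, galactose; blue, glucose; solid, standard; dashed, long-enriched). In each gene the 2 galactose curves rise at shorter lengths than the 2 glucose curves, as for COX6, where starts beyond 117 nt made up 32.1% of standard reads in galactose and 80.1% in glucose.

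Cytochrome c carries electrons from complex III to complex IV and is encoded by CYC1, the major form, and CYC7, the minor form. Both were called higher in galactose, but CYC7 reached the depth in both protocols through its galactose reads. CYC1 had 4663 reads in galactose and 617 in glucose with the standard protocol, a ratio of 5.48, and 579 in galactose and 99 in glucose with the long-enriched one, a ratio of 4.07. CYC7 had 144 reads in galactose and 15 in glucose with the standard protocol, a ratio of 6.96, and 24 in galactose and 2 in glucose with the long-enriched one, a ratio of 8.36 (2.08 to 73.0). The share of CYC7 in both was 3.00% in galactose (2.53% to 3.52%) and 2.37% in glucose (1.33% to 3.88%) with the standard protocol, and 3.98% in galactose and 1.98% in glucose with the long-enriched one. These intervals overlapped, so no difference in the share of the minor form was detectable at this depth. With each pair counted once the share was 21.0% in galactose and 12.5% in glucose with the standard protocol, and 16.5% in galactose and 5.88% in glucose with the long-enriched one.

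NDI1 feeds electrons from matrix NADH into ubiquinone. NDI1 had 154 reads in galactose and 29 in glucose with the standard protocol, a ratio of 3.85 (2.58 to 5.94). With the long-enriched protocol it had 1975 reads in galactose and 209 in glucose, a ratio of 6.58 (5.71 to 7.63). Its coding sequence of 1542 nt is among the longest of the 35 genes, and the long-enriched value rests on more reads.

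Genes that work beside these 35 were read from lists chosen with earlier results of these data known. All 4 genes of complex II, the succinate dehydrogenase, were measured and called higher in galactose, SDH1 and SDH2 with fewer than 20 glucose reads in at least 1 protocol. SDH4 had 9261 reads in galactose and 1133 in glucose with the standard protocol, a ratio of 5.93, and SDH3, SDH2 and SDH1 stood at 5.01, 8.01 and 3.73. Of the other dehydrogenases that feed the chain, 3 of 5 were measured. NDE1, an external NADH dehydrogenase, was called higher with a standard ratio of 4.81. The other two reached the depth with the standard protocol through their galactose reads, so that their calls were partly set by the filter. CYB2, the lactate dehydrogenase, had 66 reads in galactose and 0 in glucose with the standard protocol. Against a floor of 3 reads in the glucose column its ratio was 15.95, and the lower limit of its counting interval was 12.6. GUT2, the glycerol-3-phosphate dehydrogenase, had 102 reads in galactose and 3 in glucose, a ratio of 24.7 (8.20 to 122).

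The carriers that exchange substrates of the ATP synthase did not move as one. PET9, the main ADP/ATP carrier, had 5595 reads in galactose and 818 in glucose with the standard protocol, a ratio of 4.96, and MIR1, the phosphate carrier, stood at 3.51. AAC3, an ADP/ATP carrier known from anaerobic growth, was called lower, with 60 reads in galactose and 226 in glucose, a ratio of 0.193 (0.142 to 0.257), and a long-enriched ratio of 0.204. AAC1 and PIC2 were measured and called neither. Of 9 further ATP synthase and assembly genes, 6 were measured and 5 called higher, with standard ratios of 5.77 for STF1, 4.75 for TIM11 (subunit e), 3.74 for STF2 and 2.28 for the assembly factor gene ATP12 among them.

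Among factors of the chain's supercomplexes, COX26 had 3199 reads in galactose and 33 in glucose with the standard protocol, a ratio of 70.3 (49.95 to 102), and 297 in galactose and 7 in glucose with the long-enriched one, where the depth came through galactose. RCF1 stood at 3.14 and was called higher, and RCF2 at 1.04 was called neither. Of 9 assembly factors of complex III and haem lyases, 8 were measured and 0 were called. Over all measured genes 6.45% were called higher and 2.51% lower, so 0 calls among so few genes, here and among the regulators below, tell little. CYC3 and CYT2, the haem lyases of cytochromes c and c1, stood at 1.57 and 1.48 with the standard protocol and at 1.24 and 2.72 with the long-enriched one. FMP25 stood at 6.01 (2.74 to 15.6) with the standard protocol and at 0.958 with the long-enriched one. Of 7 regulators, 4 were measured and 0 called, and HAP3 and HAP5, for subunits of the CCAAT-binding complex, stood at 1.29 and 1.43. HAP4, its activating subunit, had 15 reads in galactose and 2 in glucose with the standard protocol and was not measured there; with the long-enriched protocol it had 470 in galactose and 55 in glucose, a ratio of 5.95 (4.50 to 8.02). HAP4 was named after its values were seen.

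**Figure D3:**
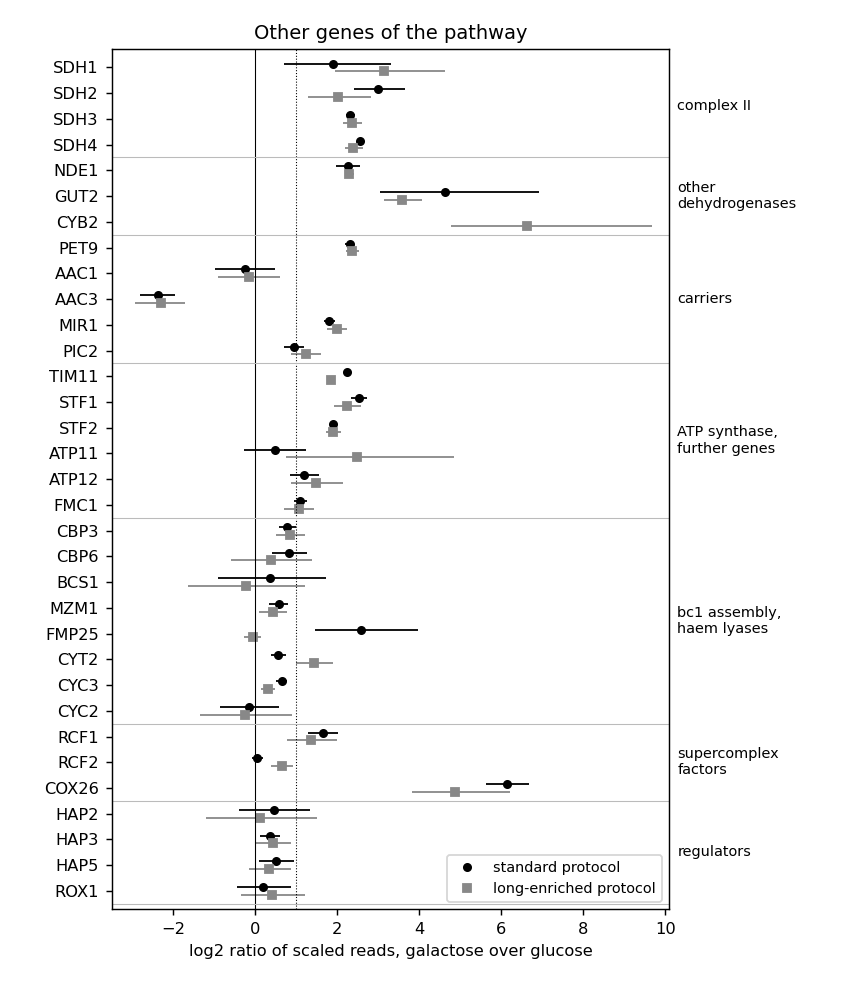
Log2 ratio of scaled reads, galactose over glucose, for the measured genes of 7 lists beside the 35 genes (circles, standard protocol; squares, long-enriched protocol; lines, 95% counting intervals; dotted line, 2-fold). Complex II and COX26 lie right of the dotted line, AAC3 lies left of 0, and the regulators and complex III assembly factors lie mostly between 0 and 1; CYB2 has no standard ratio because its glucose column is 0.

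Of the 31 genes with 20 reads in each of the 4 columns, the 5' UTR was shorter in galactose by at least 20 nt in both protocols for 3, INH1, COX6 and COX13, against 1.31% of 2668 genes with that depth. None of the 31 was longer, against 1.12% of all genes. With medians in place of means there were 4, ATP17, COX6, INH1 and QCR9, against 0.900% of all genes, and 0 longer, against 0.787%. With each pair counted once there were 2 of 28, COX6 and INH1, against 0.863%, and 0 longer, against 1.14%. At 10 nt 8 of 31 were shorter, against 2.66% of all genes, and 0 longer, against 3.04%; beside the 3 these were ATP7, ATP14, ATP17, COR1 and QCR9. With any shift counted, a setting chosen after the data were seen, 25 of 31 were shorter in galactose in both protocols and 0 longer, against 25.0% shorter and 39.3% longer over all 2668 genes. Genes outside the set that were called higher in galactose showed it too, with 52 of 88 (59.1%) shorter and 13 longer at any size, and 14 of 88 (15.9%) shorter by 20 nt. Among 2549 genes not called higher, 23.2% were shorter and 40.6% longer at any size. Shorter leaders were thus measured in the set and in other genes with more reads in galactose, and the difference between the 31 and those 88 was not tested.

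The longest mean leaders with the standard protocol in galactose were those of COX4 (438 nt), ATP1 (302 nt) and CYT1 (269 nt), and the shortest those of ATP15 (23.3 nt), COX5A (25.6 nt) and ATP19 (27.5 nt). In glucose the means were 465 nt for COX4, 295 nt for ATP1 and 265 nt for CYT1, and 24.8 nt, 27.8 nt and 32.3 nt for ATP15, COX5A and ATP19. The leader of COX4 holds a stretch of 342 nt with the sequence pattern of a yeast intron, which 1 of the 35 genes and 0.281% of 4633 genes had; its leader length in the RNA is therefore shorter by that stretch where it was spliced. COX5B had a mean leader of 115.9 nt in galactose and 36.0 nt in glucose with the standard protocol and 146.6 nt in galactose and 237.1 nt in glucose with the long-enriched one, with medians of 31 nt in every column, so few molecules with far upstream starts moved its mean. Unlike COX13, ATP14 and QCR9, it carried its nearest upstream ATG more often in galactose with the standard protocol, in 89.1% of molecules against 59.7% in glucose. With the long-enriched protocol the shares were 56.7% in galactose and 63.6% in glucose.

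The 3' UTRs of these genes were long, and none shifted between media by the rule of 20 nt. The median of their mean 3' UTRs was 210.8 nt in galactose and 207 nt in glucose with the standard protocol, against 119.5 nt in galactose and 121.7 nt in glucose over all 2668 genes. In 27 of 31 the mean lay above the median gene in galactose. None of the 31 was longer in galactose by 20 nt in both protocols (0.150% of all genes) and none shorter (1.16% of all genes). With any shift counted, 4 of 31 were longer in galactose (11.9% of all genes) and 11 shorter (49.1% of all genes). The share of longer ones was near that over all genes, and the share of shorter ones below it. The longest were RIP1, with 430.8 nt in galactose and 453.6 nt in glucose, QCR9, with 353.0 nt in galactose and 348.3 nt in glucose, and NDI1, with 345.7 nt in galactose and 347.6 nt in glucose. The shortest were COX5B, with 70.5 nt in galactose and 83.5 nt in glucose, CYC7, with 102.5 nt in galactose and 97 nt in glucose, and ATP7, with 103.7 nt in galactose and 107.9 nt in glucose.

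The number of isoforms was counted at equal depth, as the expected number of different end pairs among 50 reads. For 25 genes with 50 reads in every column the median was 34.98 isoforms in galactose and 35.5 in glucose with the standard protocol, against 30.1 in galactose and 29.7 in glucose over 1788 genes. In both protocols 4 of the 25 had more isoforms in galactose (31.1% of all genes) and 12 fewer (24.8% of all genes). Those with more were QCR9, CYC1, ATP18 and COX5A. The 12 with fewer included INH1 and COX13, whose 5' UTRs were shorter, and ATP14, with 38.2 in galactose and 40.6 in glucose. Differences were small beside the range among genes. ATP4, COX4 and ATP19 had the most isoforms in galactose with the standard protocol, with 41.3, 40.3 and 39.3, and ATP18, QCR2 and ATP2 the fewest, with 22.6, 23.0 and 23.9.

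The median number of 3' ends in the set exceeded that over all genes in all 4 columns. Among 50 standard reads it was 15.6 in galactose and 15.7 in glucose for the 25 genes, against 12.6 in galactose and 12.7 in glucose over all genes. For 5' ends the set had 13.1 in galactose and 14.0 in glucose, against 13.1 in galactose and 13.0 in glucose over all genes. With the long-enriched protocol the set had 12.4 different 5' ends in galactose and 12.6 in glucose, against 13.2 in both media over all genes. QCR2 had 5.28 different 5' ends among 50 reads in galactose, and 1 start, 60 nt before the start codon, held 74.8% of its standard reads in galactose and 77.1% in glucose. ATP2 had 81.0% of its reads at 1 start, 193 nt before the start codon, in galactose and 77.2% in glucose. CYC1 was fixed at the other end, with 71.6% of its reads in galactose and 72.6% in glucose ending 174 nt after the stop codon.

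**Figure D4:**
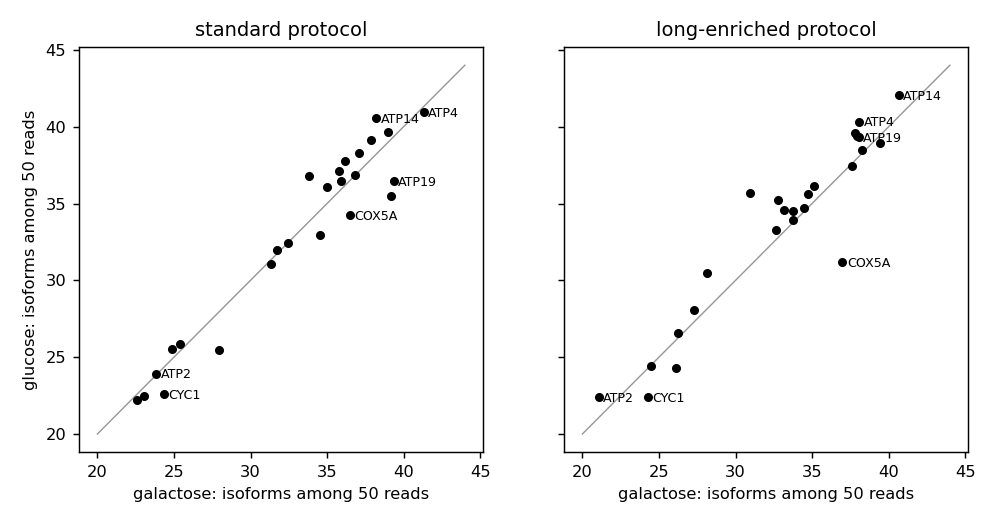
Expected number of isoforms among 50 reads in galactose (horizontal axis) and in glucose (vertical axis) for 25 genes, with the standard protocol (left) and the long-enriched one (right); the grey line marks equal numbers. Points lie near the line, with ATP2 at the low end (23.9 in both media with the standard protocol) and ATP4 at the high end (41.3 in galactose and 41.0 in glucose).

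Most molecules of these genes covered the whole coding sequence. Of standard reads overlapping the 35 genes, 95.9% covered it in full in galactose and 96.1% in glucose, and 3.86% began inside it in galactose and 3.65% in glucose. Over the pooled reads of all measured genes 6.54% began inside in galactose and 5.28% in glucose. Taken gene by gene, the median standard share was 3.47% in galactose and 3.24% in glucose for the 35 genes. Over all measured genes that median was 18.8% in galactose and 20.3% in glucose. The gap was smaller with the long-enriched protocol. There the median was 2.34% in galactose and 2.02% in glucose for the 35 genes, against 5.99% and 6.89% over all measured genes. The part of coding length in these gaps was not tested. The largest shares of standard reads beginning inside were those of ATP1, with 47.4% in galactose and 51.0% in glucose, COX5B, with 42.6% in galactose and 31.6% in glucose, and COR1, with 40.1% in galactose and 55.2% in glucose. In the long-enriched columns these shares were 7.73% in galactose and 5.89% in glucose for ATP1, 32.0% in galactose and 26.7% in glucose for COX5B, and 2.03% in galactose and 3.03% in glucose for COR1. Molecules that began before NDI1 and ended inside it made up 6.99% of its overlapping standard reads in galactose (4.26% to 10.7%). In glucose they made up 27.9% (17.7% to 40.1%), with 19 reads in each medium. In the long-enriched columns they were 1.14% in galactose and 5.04% in glucose. For QCR6 such molecules made up 8.62% of overlapping standard reads in galactose and 8.78% in glucose. With the long-enriched protocol the QCR6 share was 11.6% in galactose and 6.48% in glucose. It was above that of NDI1 in every column but standard glucose. Whether molecules ending inside NDI1 or QCR6 also covered the gene upstream was not counted, so they need not be transcripts of these genes.

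QCR6, for the acidic subunit of complex III, stood apart by molecules that joined it to the gene before it. Molecules covering QCR6 with another coding sequence made up 1.16% of its standard reads in galactose (0.791% to 1.65%) and 6.76% in glucose (4.18% to 10.2%). With the long-enriched protocol they made up 19.3% in galactose (16.1% to 22.7%) and 47.2% in glucose (37.5% to 57.1%). Nearly all of them also covered PHO4, the transcription factor gene upstream on the same strand, with 31 standard reads in galactose and 19 in glucose, and 113 long-enriched reads in galactose and 51 in glucose. The count of joined molecules was not lower in galactose, and the standard reads of QCR6 alone were 6.92-fold higher there.

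The promoters shared a sequence feature. Within 500 nt before the main start, CCAAT on either strand was found in 34 of 35 genes (97.1%), against 63.0% of 4633 genes, and within 300 nt in 91.4% against 42.0%. CYC1 was the gene without it. The longer motif TNATTGGT, which contains a CCAAT box on the reverse strand and is therefore counted under both, was found in 18 of 35 (51.4%) against 8.70% of all genes, with 18 also within 300 nt. COX5B, which was not called, also held it. These are matches of letters and were not tested for binding. INH1 and QCR9, whose starts were described above, held no match to TNATTGGT within 500 nt, and neither did ATP2, QCR6 and QCR8. The sites nearest the main start are shown for some of the genes that held it. Each is in the orientation of the gene, with the motif or its reverse complement in capitals. The coordinates are those of the motif.
COX6, 140 nt before the main start, chrVIII:209488-209495, + strand: aaagggaccTAATTGGTccggtcaaa
COX13, 193 nt before, chrVII:144595-144602, + strand: ttttttcccACCAATGAgaggcggta
ATP17, 201 nt before, chrIV:1228381-1228388, + strand: acggagagaACCAATCAtatcgaagg
ATP14, 159 nt before, chrXII:722564-722571, - strand: catacacgaACCAATTAtgcatcata
RIP1, 147 nt before, chrV:107012-107019, + strand: ccataacggACCAATCAgcgttttgc
COX5B, 42 nt before, chrIX:155149-155156, + strand: aaacaatagACCAATTAtttcaattt

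The motif TGTANATA, known in yeast as the binding sequence of Puf3, an RNA-binding protein of mRNAs for mitochondrial proteins, was found on the sense strand between the stop codon and the main 3' end in 7 of 35 genes (20.0%), against 14.9% of all genes. In ATP17 the 3' end sets whether a molecule holds the site. The site lies 322 nt after the stop codon. The most used end lay before it in the standard galactose column, at 289 nt, and past it in the others, at 389 nt in standard glucose reads and 384 nt in the long-enriched reads of both media. Molecules that reached past the site made up 39.3% of standard reads in galactose and 46.3% in glucose, and 62.8% in galactose and 69.3% in glucose with the long-enriched protocol. The share was lower in galactose in both protocols, and it differed more between protocols than between media. In QCR9 the site nearest to the stop codon lies 301 nt after it, and 92.4% of standard molecules in galactose and 89.9% in glucose passed it.
ATP17, 3' UTR site, chrIV:1229238-1229245, + strand: atatatataTGTATATAgatatgggt
QCR9, 3' UTR site, chrVII:858755-858762, - strand: ctcattttaTGTATATAcatatattt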

How the data were processed

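The deposited values are read counts per pair of transcript ends, which the authors added up over libraries of 1 kind. CASAVA, the aligner Novoalign 2.07.10 and build R64 are listed in the submitters' processing notes. The sources used here state neither filters on span nor how duplicate reads were handled; repeated PCR copies of a molecule may be present. Some standard libraries carried capped in vitro transcripts of Bacillus subtilis genes, per the labels. Of the count columns 0 were unused.

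Reads were given to a gene if they spanned its entire coding sequence on the same strand and that of no other gene; 502140 pairs had no read in any column. Scaling used edgeR 4.0.16 (trimmed mean of M values; R 4.3.3), within each protocol. Intervals are exact conditional binomial intervals for ratios and exact binomial intervals for shares, at 95%. Log2 ratios used 0.5 reads as pseudocount, and folds against 0 reads a floor of 3. UTR lengths are distances from read ends to the start or stop codon. The level rule was tested on simulated data for 3583 genes with counting error alone: 200 genes had a 4-fold change, all 200 (100%) were called, and so were 0 of the unchanged ones.

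The members, the lists beside them and the rules were chosen with earlier results of these data known. Genes were named by rule: per complex the highest and lowest standard ratio, both pairs of paralogs, INH1 and NDI1, shifted UTRs and the 3 longest and 3 shortest, the 3 with the most and fewest isoforms, the largest share of each other molecule class, and in each list up to 4 called genes or the 2 with most reads. ATP14, ATP17, QCR9, QCR2, CYC1 and HAP4 were further described for features seen in the data. Copies of members were searched with blastn 2.17.0. Alternatives were DESeq2 1.42.0 size factors, total reads, no minimum, reads overlapping at least 50% of the coding sequence, pairs seen at least 2 times, each pair counted once, a 1.5-fold threshold, medians, UTRs up to 500 nt, 10 nt or any shift, a depth of 200 reads, ends in bins of 5 nt and a 300 nt window. Python 3.11.15 ran pandas 2.3.3, numpy 2.4.6, scipy 1.17.1 and matplotlib 3.10.9.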

Additional observations from a re-analysis of the deposited data

Results flagged for a closer look

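The control libraries of polyadenylated RNA without a cap entered no comparison above. They held 15877 reads overlapping the 35 genes in galactose and 4689 in glucose. The columns held 1100551 reads in galactose and 1317650 in glucose, and the ratio of member reads per total reads was 4.05 (3.92 to 4.19, counting error only, 1 library each). This ratio was scaled by total reads and not by the trimmed mean of M values, so it is not on the scale of the ratios above. Of the member reads 87.1% began inside the coding sequence in galactose and 88.8% in glucose, and 1972 in galactose and 520 in glucose covered it in full. Over all measured genes 90.7% began inside in galactose and 92.0% in glucose, so this trait was not particular to the 35 genes. The galactose library came from culture 3 and the glucose library from culture 2.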

How the results depend on the processing

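No paired analysis was possible because libraries are summed within each column, and for the same reason no replicate could be left out. Over all alternatives 315 values kept their direction and their side of the threshold or stayed within the stated range. Of the rest, 24 moved out of that range, 11 lost their call and 3 changed direction. The 315 include the member ratios with no minimum of reads and with the 1.5-fold threshold, which could not change. COX5B turned to a log2 ratio of 0.46 with total reads, 0.22 with reads overlapping at least 50% of the coding sequence and 0.17 with each pair counted once, against -0.009; none of these was called. With each pair counted once, 10 members lost the 2-fold call (ATP2, ATP4, ATP5, ATP14, ATP15, ATP16, ATP18, COX5A, COX9 and QCR2), and 24 stayed called. The median log2 ratio was then 1.28 (standard) and 1.32 (long-enriched), against 1.97 and 2.04. Counting pairs once limits the count of a gene to its number of different pairs. The part of read depth and of repeated copies in the lost calls was not tested. CYC7 lost its call with pairs seen at least 2 times, at a standard log2 ratio of 3.07 against 2.76. Total reads moved the median log2 ratio of all genes by 0.46 (standard) and 0.15 (long-enriched) and gave 352 genes higher and 56 lower, against 231 and 90, a share of higher calls of 86.3% against 72.0%. Counting pairs once gave 126 higher and 31 lower (80.3% higher), and the 1.5-fold threshold 401 and 239 (62.7% higher).

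The COX5B share with 50% overlap was 5.15% in galactose and 13.03% in glucose with the standard protocol and 13.04% in galactose with the long-enriched one, and with pairs counted once 9.77% in galactose and 15.8% in glucose with the standard protocol. The CYC7 share with pairs counted once was 21.0% in galactose and 12.5% in glucose with the standard protocol and 16.5% in galactose and 5.88% in glucose with the long-enriched one. Shorter 5' UTRs numbered 8 of 31 at 10 nt (2.66% of all genes), 25 of 31 at any size (25.0%), 4 of 31 by medians (0.900%; ATP17 and QCR9 gained, COX13 lost) and 2 of 28 with pairs counted once (0.863%; COX13 not called). 3' UTRs at any size were longer in 4 of 31 (11.9% of all genes) and shorter in 11 of 31 (49.1%), against 0 and 0 at 20 nt. At 200 reads, where fewer genes have the depth, 2 of 7 members had more isoforms in galactose (31.9% of all genes) and 3 of 7 fewer (26.2%). With pairs seen at least 2 times, reads beginning inside the members were 2.88% in galactose and 2.49% in glucose with the standard protocol, and 1.15% in galactose and 0.736% in glucose with the long-enriched one. The cause of these changes was not tested unless stated. Depth limits the ratios of ATP3, CYC7, CYT1 and COX4, whose long-enriched glucose columns held fewest reads.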
